A study of Mus musculus with 7 samples.

Results

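The TSC22 domain family of mouse comprises Tsc22d1, Tsc22d2, Tsc22d3 and Tsc22d4, and its levels were described in haematopoietic stem cells (HSCs) of old and young mice. The members were found by symbol, and all 4 were present among the 24015 genes of the deposited count table. All 4 also held enough counts to enter the test, which covered 11506 genes. Bone marrow of C57BL/6 mice had been sorted for lineage-negative, Sca-1+, c-Kit+ cells with CD150 and without CD48 (the CD150+CD48- LSK gate for HSCs), and bulk polyA libraries were sequenced. No genotype, transgene or treatment is given for either group. The old group had 3 libraries and the young group 4, each with 22203806 to 32401925 counts, and edgeR called 27 genes higher and 2 lower in old. The labels give neither the ages, the sex, nor how many mice stand behind a library, so errors measure the spread between these samples, which may be partly technical. The family was chosen by its old against young values, as Tsc22d1 was already known to be higher in old HSCs. The old against young values of the 4 genes are therefore given as a description, and nothing is read from their calls in a test.

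TSC22 proteins carry a conserved stretch, the TSC box, next to a leucine zipper, and pair with themselves and with each other. They lack the basic region by which classical leucine zipper factors contact DNA. TSC22D1 was first cloned as a gene stimulated by TGF-beta. TSC22D3, also called GILZ, is a textbook target of glucocorticoids in lymphocytes and of FOXO factors, and its protein binds NF-kappaB and AP-1. TSC22D2 and TSC22D4 are known, mostly from human cells, as partners of the pseudokinase NRBP1 and of WNK kinases, which adjust ion transport to cell volume.

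Promoter windows, from 250 bases before to 50 bases after a transcript start, were taken from RefSeq for GRCm38.p6. That table held 5 starts of Tsc22d1 and 3 of Tsc22d3, numbered here from the upstream one, and none of Tsc22d2 or Tsc22d4. The counts are per gene, so no start could be given a level of its own. The windows were searched on both strands for AGAACA (the hexamer of the glucocorticoid response element), AGAACA followed after 3 bases by TGTTCT (the full element), CAGACA (SMAD), GTAAACA (forkhead), TGANTCA (AP-1), TGACGTCA (CRE) and CACGTG (E-box). Matches to AGAACA lay in 1 window of each gene, and matches to CAGACA also in 1 window of each. The 3 windows with these letters are shown because they hold the search letters of the hormone and the growth factor for which Tsc22d3 and Tsc22d1 are named. Capitals mark the matches, read 5′ to 3′ on the strand of the gene.
Tsc22d1 start 3, chr14:76488186-76488485, plus strand: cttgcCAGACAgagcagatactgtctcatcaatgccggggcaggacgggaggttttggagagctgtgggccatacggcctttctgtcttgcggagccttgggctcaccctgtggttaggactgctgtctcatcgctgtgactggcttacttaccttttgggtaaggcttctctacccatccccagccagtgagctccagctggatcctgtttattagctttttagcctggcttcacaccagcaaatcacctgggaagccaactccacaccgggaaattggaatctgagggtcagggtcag
Tsc22d1 start 4, chr14:76503976-76504275, plus strand: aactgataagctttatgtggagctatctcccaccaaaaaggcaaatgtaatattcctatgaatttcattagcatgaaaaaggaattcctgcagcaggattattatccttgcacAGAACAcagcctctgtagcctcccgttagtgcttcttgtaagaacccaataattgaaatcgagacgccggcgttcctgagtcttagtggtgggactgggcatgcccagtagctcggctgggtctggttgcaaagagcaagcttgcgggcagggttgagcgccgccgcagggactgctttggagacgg
Tsc22d3 start 1, chrX:140600473-140600772, minus strand: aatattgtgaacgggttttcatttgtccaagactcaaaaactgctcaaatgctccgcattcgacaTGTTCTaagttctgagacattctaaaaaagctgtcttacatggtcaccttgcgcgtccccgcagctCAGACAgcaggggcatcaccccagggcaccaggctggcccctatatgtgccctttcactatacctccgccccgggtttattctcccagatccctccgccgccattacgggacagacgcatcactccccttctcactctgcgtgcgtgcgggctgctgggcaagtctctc

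In start 4 of Tsc22d1 the hexamer AGAACA began 137 bases before the transcript start. In start 1 of Tsc22d3 it lay on the opposite strand, so that TGTTCT is printed, beginning 185 bases before the start. CAGACA began 245 bases before start 3 of Tsc22d1 and 119 bases before start 1 of Tsc22d3. Start 2 of Tsc22d1 held CACGTG, beginning 33 bases before the start. The full glucocorticoid element and the forkhead, AP-1 and CRE letters had no match in the 8 windows, which says only that they are not there as spelled. The single hexamers are common. Of 32851 windows in the table, 19% held AGAACA, 21% CAGACA, 7.15% CACGTG, 7.81% TGANTCA, 3.65% GTAAACA, 1.79% TGACGTCA and 0.00913% the full glucocorticoid element. The windows overlap between close starts, as starts 4 and 5 of Tsc22d1 do. A match is a match of letters and not a site.

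**Figure D1:**
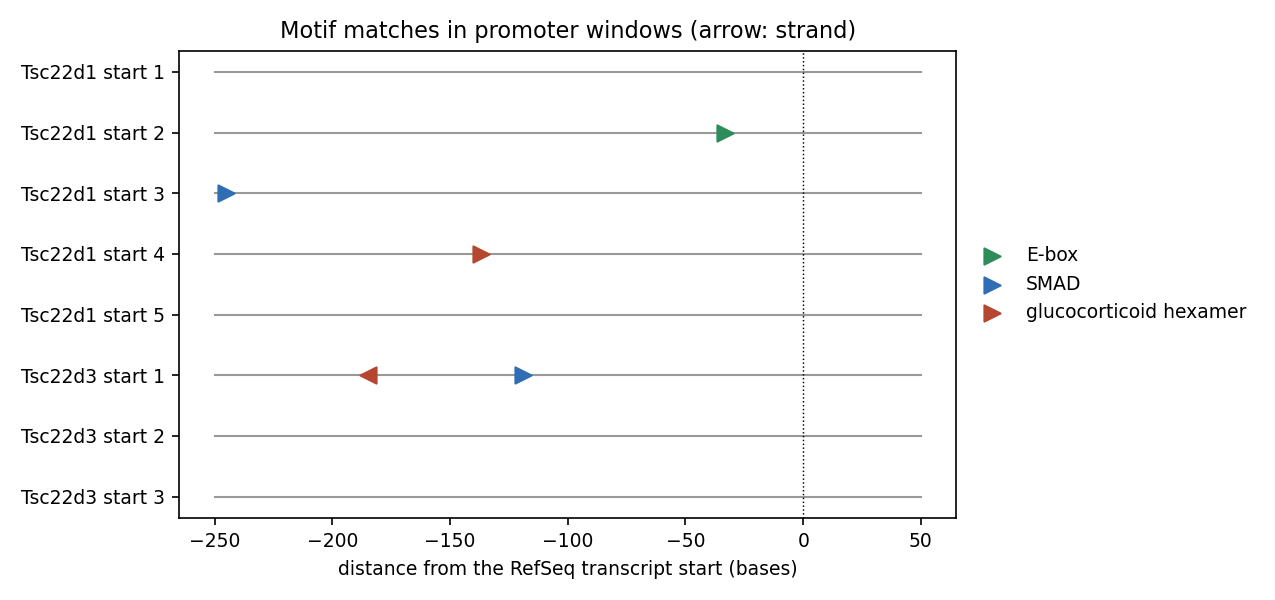
Positions of motif matches in the 8 RefSeq promoter windows of Tsc22d1 and Tsc22d3, in bases from the transcript start on the x axis, with 1 row per start. Arrowheads point along the strand of the match and colours give the motif; AGAACA (labelled glucocorticoid hexamer) and CAGACA (SMAD) each appear in 1 window of each gene.

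Tsc22d1 was at a higher level in every old library than in any young library. Levels are in CPM, with library totals scaled by TMM factors. Tsc22d1 had 2222, 2366 and 2696 CPM in old 1, old 2 and old 3, against 855, 956, 994 and 1226 CPM in young 1, young 2, young 3 and young 4. The groups did not overlap, and the lowest old library was 1.81 times the highest young library. The mean was 2428 ± 243 CPM in old HSCs (SD, n = 3) and 1008 ± 157 CPM in young HSCs (SD, n = 4), 2.41-fold higher in old, and the fitted log2 fold change was 1.27 ± 0.19 (SE). With any 1 library left out, the ratio of the means was 2.28 (without old 3) to 2.60 (without young 4). Several starts give this gene long and short proteins, which a count per gene does not separate.

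Tsc22d3, the glucocorticoid-induced member, showed the same order of groups at a lower CPM. It had 1002, 1227 and 1653 CPM in old 1, old 2 and old 3, against 499.5, 438, 616 and 627 CPM in young 1, young 2, young 3 and young 4. Again the groups did not overlap, with the lowest old library 1.60 times the highest young library. The mean was 1294 ± 330.4 CPM in old HSCs (SD, n = 3) and 545 ± 91.5 CPM in young HSCs (SD, n = 4), 2.37-fold higher in old, with a fitted log2 fold change of 1.25 ± 0.23 (SE). Without old 3, the highest of the libraries, the ratio of the means was 2.04, and without old 1 it was 2.64.

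Tsc22d2, a long family member known as a partner of NRBP1 and WNK1, was the least abundant of the 4 and overlapped between the groups. It had 25.3, 13.2 and 12.1 CPM in old 1, old 2 and old 3, against 16.3, 0.959, 5.31 and 14.5 CPM in young 1, young 2, young 3 and young 4. The lowest value, in young 2, rested on 21 counts, while the other libraries held 147 to 671. The mean was 16.9 ± 7.36 CPM in old HSCs (SD, n = 3) and 9.24 ± 7.31 CPM in young HSCs (SD, n = 4), and the fitted log2 fold change, 0.87 ± 1.13 (SE), was smaller than its error. Young 1 and young 4 lay above old 2 and old 3. The ratio of the means was 1.82, and it was 1.37 without old 1 and 2.44 without young 1.

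Tsc22d4, which pairs with TSC22D1 and is known in mouse liver as a regulator of lipid metabolism, varied widely between young libraries. It had 33.2, 73.3 and 46.1 CPM in old 1, old 2 and old 3, against 21.8, 30.3, 122 and 96.6 CPM in young 1, young 2, young 3 and young 4. Young 1 and young 2 lay below all old libraries, and young 3 and young 4 lay above all of them. The mean was 50.8 ± 20.5 CPM in old HSCs (SD, n = 3) and 67.7 ± 49.2 CPM in young HSCs (SD, n = 4), with a fitted log2 fold change of -0.41 ± 0.64 (SE). The direction depended on young 3, without which the ratio of the means was 1.03, against 0.751 with all libraries and 0.586 without old 2.

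**Figure D2:**
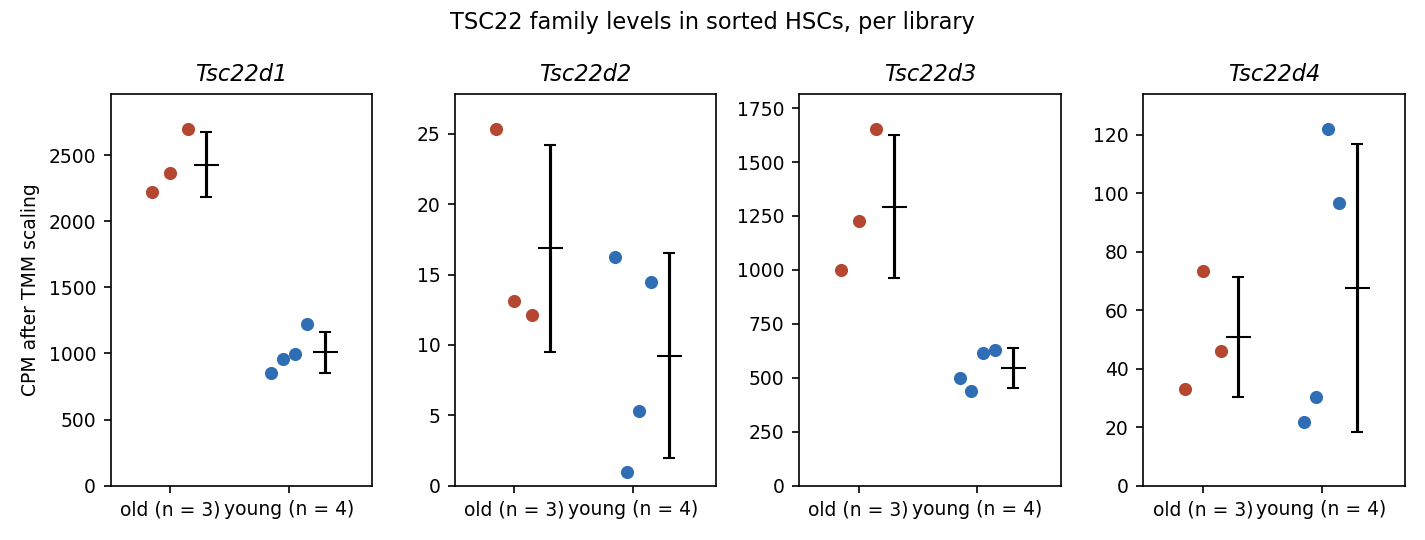
CPM after TMM scaling of each TSC22 family gene, with 1 panel per gene and its own y axis from 0. Points are libraries, and the black bar and whiskers give the mean and SD of 3 old and 4 young libraries; the groups are apart for Tsc22d1 and Tsc22d3 and overlap for Tsc22d2 and Tsc22d4.

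In the edgeR quasi-likelihood test over all genes, with Benjamini-Hochberg adjustment, 1 of the 4 members (Tsc22d1) had an adjusted p under 0.05 as higher in old, where 0.235% of all tested genes did, and 0 were lower, where 0.0174% of all tested genes were. Tsc22d1 passed in 0 of the 7 fits without 1 library, and not with library size alone or with the replicate block. DESeq2 and limma-voom called both Tsc22d1 and Tsc22d3 higher. In 7.55% of all tested genes every old library lay above every young library, and in 5.18% every old library lay below. This comparison chose the family, so nothing is read from these calls or counts. Calls by several tools use the same libraries and add no independent support. In bulk RNA, more cells with a transcript and more transcript per cell cannot be told apart.

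Tsc22d1 and Tsc22d3 also differed between the groups by nearly the same factor. The ratio of Tsc22d1 counts to Tsc22d3 counts was 2.22, 1.93 and 1.63 in old 1, old 2 and old 3, against 1.71, 2.18, 1.62 and 1.96 in young 1, young 2, young 3 and young 4. It averaged 1.93 ± 0.29 in old HSCs (SD, n = 3) and 1.87 ± 0.25 in young HSCs (SD, n = 4), a difference well inside either SD. Of the summed counts of the family, Tsc22d1 held 64.4 ± 3.26% in old and 62.03 ± 4.03% in young HSCs, and Tsc22d3 33.8 ± 3.51% in old and 33.5 ± 2.54% in young HSCs (SD, n = 3 and 4). Tsc22d4 held 1.35 ± 0.56% in old and 3.91 ± 2.54% in young HSCs, and Tsc22d2 0.468 ± 0.267% in old and 0.569 ± 0.485% in young HSCs. The summed level of the family was 3282, 3679.6 and 4407 CPM in old 1, old 2 and old 3, against 1392.5 to 1964 CPM in the young libraries. It averaged 3789.5 ± 570.4 CPM in old against 1629.7 ± 272 CPM in young, 2.33-fold higher in old, and Tsc22d1 and Tsc22d3 made up nearly all of it.

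Levels of different genes were compared per kilobase of the exons of GENCODE M21, whose build (GRCm38) is later than that of the counts. On this scale Tsc22d3 averaged 467 ± 119 CPM per kb in old and 197 ± 33.0 CPM per kb in young HSCs, with a range of 362 to 596 in old and 158 to 226 in young. Tsc22d1 averaged 347 ± 34.8 CPM per kb in old and 144 ± 22.4 CPM per kb in young HSCs, with a range of 318 to 385 in old and 122 to 175 in young, so these neighbours overlapped in both groups. Their order also turned with the length used. Over the shortest coding transcript of each gene, Tsc22d1 was at 3624 CPM per kb in old and 1504 in young HSCs, above the 1359 in old and 573 in young of Tsc22d3. Tsc22d4 followed with 8.86 ± 3.57 CPM per kb in old and 11.8 ± 8.59 in young HSCs, and Tsc22d2 with 1.72 ± 0.75 in old and 0.943 ± 0.746 in young HSCs. In old HSCs the ranges of these last 2 genes did not overlap (5.78 to 12.8 and 1.24 to 2.59 CPM per kb), nor did they in young HSCs (3.80 to 21.3 and 0.0979 to 1.66). Among the 10958 tested genes with a length, Tsc22d3 ranked 148th in old and 426th in young HSCs by mean CPM per kb, and Tsc22d1 212th in old and 682nd in young HSCs. Tsc22d4 ranked 5502nd in old and 5015th in young, and Tsc22d2 8746th in old and 9733rd in young.

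How much a gene varied between libraries of the same group was computed without the old against young difference. A small spread makes a difference easier to call, and the family was chosen through Tsc22d1. The spread of Tsc22d1 is therefore not independent of that choice. The within-group SD of log2 CPM was 0.19 for Tsc22d1, 0.30 for Tsc22d3, 1.01 for Tsc22d4 and 1.47 for Tsc22d2, where the median of all tested genes was 0.88. Spread falls with level, so each was set beside genes whose mean CPM was within 2-fold of its own. Of 110 such genes, 15 (13.6%) had a smaller SD than Tsc22d1, and their median was 0.31. For Tsc22d3 it was 143 of 324 (44.1%), with a median of 0.31. For Tsc22d4 it was 3012 of 3771 (79.9%), with a median of 0.63, and for Tsc22d2 1072 of 3052 (35.1%), with a median of 2.37. Tsc22d1 was thus among the steadier genes of its level, Tsc22d3 and Tsc22d2 were near the middle, and Tsc22d4 was among the more variable.

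**Figure D3:**
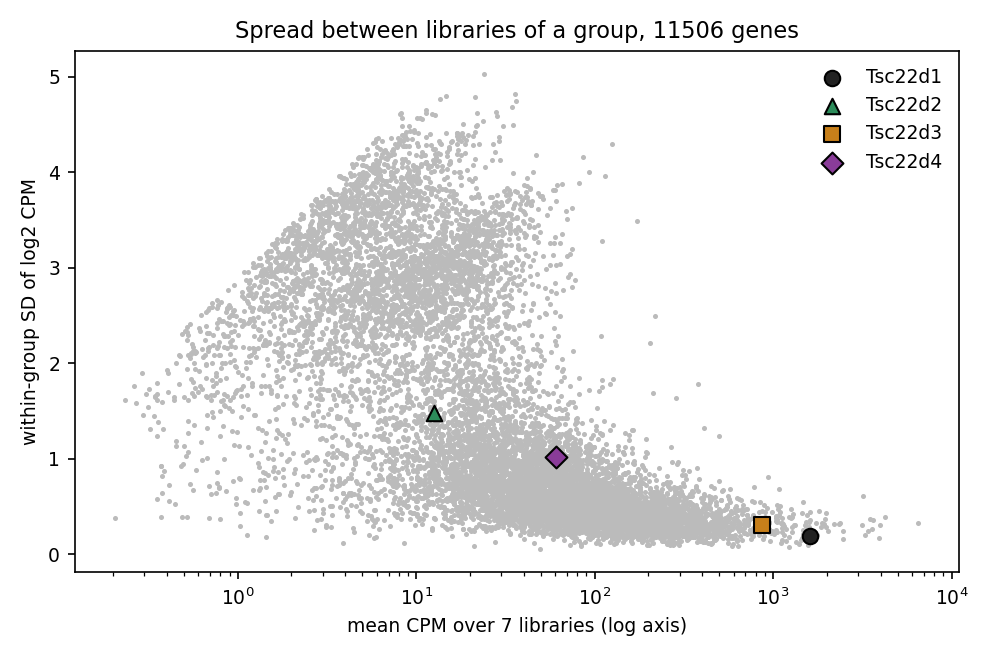
Within-group SD of log2 CPM (y axis) against mean CPM over 7 libraries (log x axis) for the 11506 tested genes in grey, with the 4 TSC22 family genes marked. Tsc22d1 (0.19) and Tsc22d3 (0.30) lie at the abundant, steady end, Tsc22d4 (1.01) in the upper part of its level and Tsc22d2 (1.47) among scattered low genes.

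The genes whose profile over the 7 libraries was most like that of each member were ranked by the root mean square difference of log2 CPM, after each gene was centred on its own mean, among 8244 genes that averaged 10 CPM or more. Out of these, the nearest to Tsc22d3 was Tsc22d1, at a difference of 0.18. The nearest to Tsc22d1 were Itch, an E3 ubiquitin ligase (0.11), and Mrrf, a mitochondrial ribosome recycling factor (0.16), followed by Tsc22d3 (0.18), Krt18, a keratin (0.18), and Ninj1, a membrane protein of plasma membrane rupture (0.18). After Tsc22d1, the nearest to Tsc22d3 included Osbpl9, an oxysterol-binding-like protein (0.20), Krt18 (0.22) and Gabarapl1, an autophagy protein (0.22). The other pairs of members were 0.99 to 1.64 apart. These distances include the difference between the groups, which chose the family. On deviations from the group means alone, Tsc22d1 and Tsc22d3 were 0.17 apart, but Tsc22d3 was then in place 105 for Tsc22d1 and Tsc22d1 in place 57 for Tsc22d3. Leaving out 1 library at a time put their distance at 0.16 to 0.19, with Tsc22d3 in place 2 to 12 for Tsc22d1 and Tsc22d1 in place 1 to 4 for Tsc22d3.

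The nearest genes to Tsc22d4 were, like it, lower in young 1 and young 2 than in young 3 and young 4. They included Cnp, a cyclic nucleotide phosphodiesterase (0.27), Vav1, a guanine nucleotide exchange factor of blood cells (0.29), Tnfrsf21, a death receptor (0.29), and Ddb1, an adaptor of a ubiquitin ligase (0.35). For Tsc22d2 the nearest were B3galt6, a galactosyltransferase (0.35), Tmem62 (0.38), Mxd4, a MAX-binding repressor (0.50), Zfp874a (0.50) and Zbtb44 (0.51). Few of these names were stable. Without young 1, 4 of the 20 remained, among them Itch for Tsc22d1 and Tsc22d1 for Tsc22d3. All 5 genes nearest to Tsc22d4 were replaced.

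**Figure D4:**
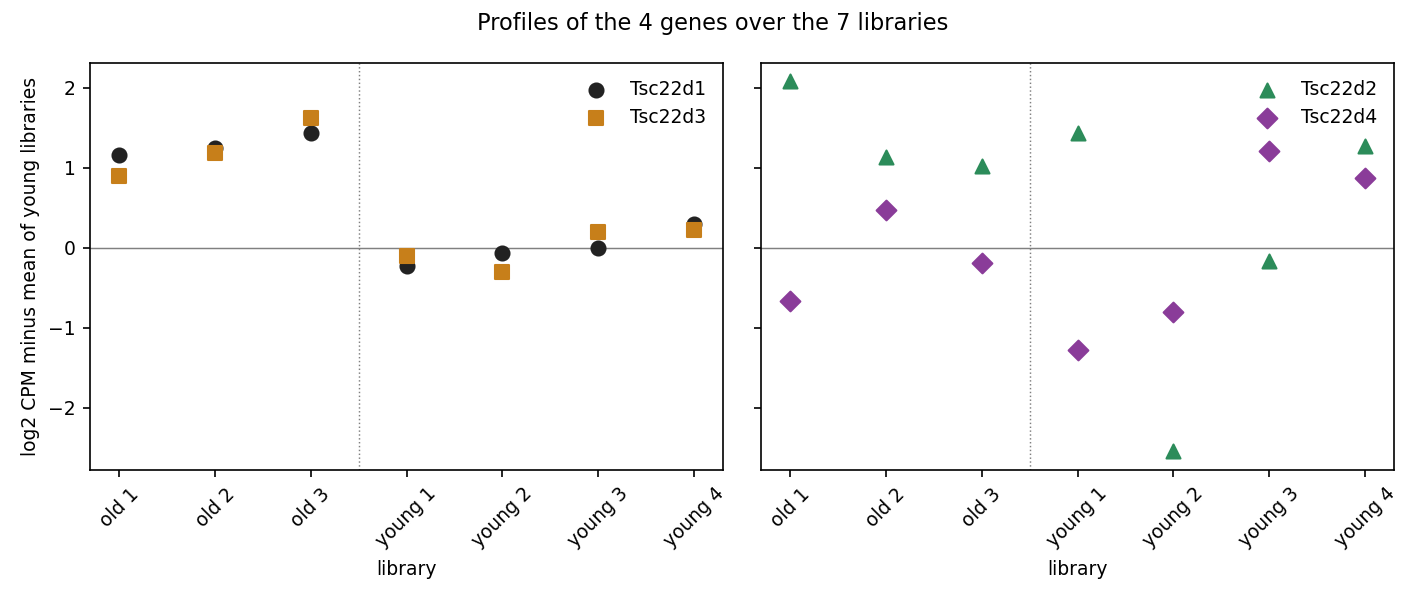
log2 CPM of each gene minus its mean over the young libraries (y axis) in the 7 libraries (x axis), Tsc22d1 and Tsc22d3 in the left panel and Tsc22d2 and Tsc22d4 in the right. Tsc22d1 and Tsc22d3 lie close to each other in every library, between 0.89 and 1.62 in old and between -0.30 and 0.30 in young, while Tsc22d2 reaches -2.54 in young 2.

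The genes around the family were read from 6 lists of general knowledge, drawn up with earlier results of these data known. The shares below are therefore a description. The lists held 111 distinct genes, 96 of them tested. Among these, Fos alone passed the threshold (edgeR, 1.04% of the tested list genes), as higher in old. In 17 of the 96 (17.7%) every old library lay above every young library, and in 3 (3.12%) every old library lay below, where all tested genes gave 7.55% above and 5.18% below. Over all tested genes the median log2 fold change was -0.03. At an unadjusted p under 0.05 in edgeR, 15 of the 96 were higher and 5 lower. Of all 11506 tested genes, 532 were higher and 517 lower, which is the background for the unadjusted counts of each list below.

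Genes of the WNK and NRBP pathway, through which TSC22D2 and TSC22D4 are tied to cell volume, gave 0 calls in edgeR, DESeq2 and limma-voom. Of 17 tested members, 7 had a positive fitted log2 fold change (median -0.23), and at an unadjusted p under 0.05 in edgeR 2 were higher and 1 was lower. The main partners overlapped between the groups. Nrbp1 averaged 105 ± 32.1 CPM in old against 143 ± 36.6 CPM in young (adjusted p = 0.838), and Wnk1 39.0 ± 11.3 CPM in old against 45.7 ± 15.95 CPM in young (adjusted p = 0.976). Oxsr1, the kinase that WNK1 activates, averaged 12.01 ± 3.44 CPM in old against 19.6 ± 13.9 CPM in young (adjusted p = 0.950). These 3 genes were named for their roles after their values were seen. Nrbp2, the second NRBP pseudokinase, had 0.730 to 6.87 CPM in old HSCs and no count in any young library. Wnk4 had 1.998 to 3.06 CPM in old HSCs, again with no count in any young library. Against 3 counts per young library, averaged over the group (0.120 CPM), the old mean was 34.1-fold for Nrbp2 and 21.99-fold for Wnk4. These limits cover counting error only and not the spread between libraries. Neither gene passed (edgeR adjusted p = 0.220 and 0.213). Lrrc8c, a subunit of volume-regulated anion channels, averaged 33.9 ± 5.75 CPM in old against 73.8 ± 32.9 CPM in young (adjusted p = 0.524).

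The glucocorticoid receptor and its cofactors gave 0 calls in the same 3 tools. Of 10 tested members, 3 had a positive fitted log2 fold change (median -0.40), and at an unadjusted p under 0.05 in edgeR 1 was higher and 2 were lower. Nr3c1, the receptor itself, averaged 53.8 ± 18.3 CPM in old against 41.5 ± 14.5 CPM in young (edgeR adjusted p = 0.948), a gene named after its values were seen. Fkbp4, a cochaperone that carries the receptor to the nucleus, averaged 183 ± 41.7 CPM in old against 337 ± 88.0 CPM in young (adjusted p = 0.291). Hsp90aa1, a chaperone of the receptor, averaged 288 ± 29.7 CPM in old against 186 ± 33.2 CPM in young (adjusted p = 0.356). For the corepressor Ncor1 the means were 169.8 ± 66.1 CPM in old against 304 ± 115 CPM in young (adjusted p = 0.518). Hsd11b1, which regenerates active glucocorticoid, had no count in any library.

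Glucocorticoid-induced genes other than Tsc22d3 gave 0 calls in edgeR, 4 in DESeq2 (Mt1, Mt2, Anxa1 and Nfkbia, all higher) and 0 in limma-voom. Of 18 tested members, 15 had a positive fitted log2 fold change (median 0.53), and at an unadjusted p under 0.05 in edgeR 4 were higher and 1 was lower. In 5 of the 18 every old library lay above every young library, and in 0 every old library lay below. All tested genes gave 7.55% above and 5.18% below. Mt1, a metallothionein, averaged 149 ± 38.8 CPM in old against 13.9 ± 9.51 CPM in young, 10.7-fold higher in old (adjusted p = 0.0760). The phospholipid-binding protein Anxa1 averaged 502 ± 126 CPM in old against 218 ± 48.7 CPM in young (adjusted p = 0.138). Nfkbia, the inhibitor of NF-kappaB, averaged 449.9 ± 162 CPM in old against 155 ± 82.2 CPM in young (adjusted p = 0.197). Mt2, a second metallothionein, averaged 25.8 ± 10.6 CPM in old against 0.506 ± 0.474 CPM in young (adjusted p = 0.223), and Cebpd, a leucine zipper factor, 26.8 ± 5.97 CPM in old against 6.95 ± 4.16 CPM in young (adjusted p = 0.556). In all 5 of these genes every old library lay above every young library. Fkbp5 averaged 24.4 ± 18.9 CPM in old against 17.7 ± 10.5 CPM in young (adjusted p = 0.976), and Per1 1.53 ± 1.502 CPM in old against 7.23 ± 4.80 CPM in young (adjusted p = 0.887), both with overlap. Zbtb16 had no count in any library. Mt2, Cebpd, Fkbp5, Per1 and Zbtb16 were named after their values were seen.

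FOXO factors and their target genes gave 0 calls in edgeR, 2 in DESeq2 (Sesn1 and Klf2, both higher) and 0 in limma-voom. Of 18 tested members, 13 had a positive fitted log2 fold change (median 0.37), and at an unadjusted p under 0.05 in edgeR 2 were higher and 0 lower. In 3 of the 18 every old library lay above every young library (Foxo1, Sesn1 and Klf2), and in 0 below. All tested genes gave 7.55% and 5.18%. Foxo1 averaged 38.1 ± 3.86 CPM in old against 18.9 ± 6.44 CPM in young (adjusted p = 0.742). Foxo3 (2.64 CPM in old against 3.64 in young) and Foxo4 (0.382 against 2.67) overlapped between the groups, and Foxo6 had no count. These FOXO genes were named after their values were seen. Klf2, a quiescence factor of lymphocytes, averaged 94.7 ± 29.9 CPM in old against 14.7 ± 9.72 CPM in young, 6.46-fold higher in old (adjusted p = 0.159). The stress-induced sestrin Sesn1 averaged 563 ± 62.8 CPM in old against 271 ± 87.4 CPM in young (adjusted p = 0.204). Txnip, the inhibitor of thioredoxin, averaged 424 ± 52.5 CPM in old against 290.2 ± 103 CPM in young (adjusted p = 0.662). Of the list genes, 9 stood in 2 lists, so the lists were not independent. Bcl6, Pik3ip1 and Txnip stood in this list and in the list of glucocorticoid-induced genes. Nrbp1, Nrbp2 and Wnk1 stood in the WNK list and among the binding partners below. Smad3, Smad4 and Smad7 stood in the TGF-beta list and among the binding partners.

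The TGF-beta list, of the pathway from which Tsc22d1 takes its name, gave 0 calls in edgeR, 2 in DESeq2 (Id2 and Bambi, both higher) and 0 in limma-voom. Of 21 tested members, 13 had a positive fitted log2 fold change (median 0.33), and at an unadjusted p under 0.05 in edgeR 3 were higher and 1 was lower. The median stayed positive, from 0.04 to 0.54, under the other tests, scalings and filters and without any 1 library, except when the test was limited to genes that averaged 50 CPM or more, where 5 of the list remained and their median was -0.63. Id2, a dimerization inhibitor, averaged 91.5 ± 34.04 CPM in old against 6.02 ± 5.61 CPM in young (adjusted p = 0.181). Bambi, a decoy receptor, averaged 68.4 ± 32.6 CPM in old against 18.8 ± 2.59 CPM in young (adjusted p = 0.229). The ligand Tgfb1 lay lower in every old library, with 79.1 ± 31.5 CPM in old against 161 ± 19.3 CPM in young (adjusted p = 0.304).

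Among binding partners of TSC22 proteins, Fos rose in old HSCs. It also stood in the list of immediate early genes below, where all 11 tested genes had a positive fitted log2 fold change. Fos, an AP-1 subunit that TSC22D3 binds, averaged 1863 ± 741 CPM in old against 448 ± 121 CPM in young (log2 fold change 2.06 ± 0.33, edgeR adjusted p = 0.0483). It did not pass without any 1 of the 7 libraries. Of 21 tested partners, 10 had a positive fitted log2 fold change (median -0.15), and at an unadjusted p under 0.05 in edgeR 4 were higher and 0 lower. In 4 of the 21 every old library lay above every young library, and in 0 every old library lay below. The 4 were Fos, Cebpb, Nrbp2 and Tpt1, the last named after its values were seen. All tested genes gave 7.55% above and 5.18% below. The sign of the median turned without young 1 (0.03), young 3 (0.09) or young 4 (0.03). It also turned with limma-voom (0.03) and with the replicate block (0.04). Cebpb, a leucine zipper factor of myeloid cells, averaged 224 ± 63.8 CPM in old against 83.7 ± 12.8 CPM in young (adjusted p = 0.102). Jun and Rela, whose proteins TSC22D3 also binds, overlapped between the groups, with edgeR adjusted p of 0.935 and 0.936. Both were named for their roles after their values were seen.

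**Figure D5:**
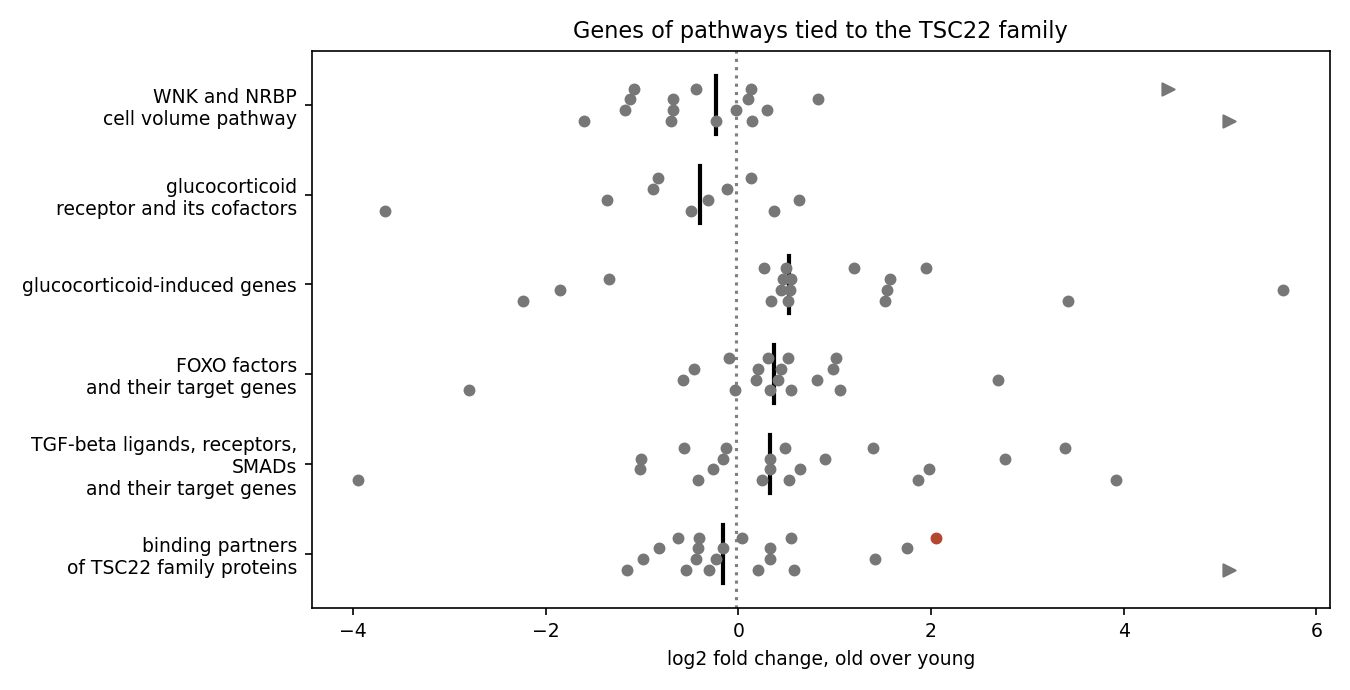
log2 fold change, old over young (x axis), of the tested genes of 6 pathway lists, with 1 point per gene and a black line at each list's median; the dotted line is the median over the whole test (-0.03). Triangles are lower bounds for genes with no count in any young library (Nrbp2 and Wnk4), and Fos, in red, alone passed the threshold.

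Markers of the sort were checked against the label. All 7 HSC markers had counts in every library, among them Kit (136 to 332 CPM in old and 170 to 546 CPM in young), Ly6a, which encodes Sca-1 (270 to 991 CPM in old and 101 to 234 CPM in young), and Slamf1, which encodes CD150 (102 to 278 CPM in old and 60.6 to 99.2 CPM in young). Cd48 had no count in old HSCs and 1.87 to 24.5 CPM in young HSCs.

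Markers of other cell types were partly at 0 and partly present. In every library no count was found for haemoglobin (Hba-a1 and Hbb-b1), Pax5 and Ebf1 of B cells, Cd3e and Cd8a of T cells, Csf1r of macrophages, or Mcpt8, Ms4a2 and Tpsb2 of mast cells and basophils. Other members of the same lists had counts. Of the B cell list, Cd79b averaged 151 ± 67.2 CPM in old against 144 ± 27.9 CPM in young. Of the T and NK cell list, Klrb1c averaged 178 ± 64.9 CPM in old against 3.04 ± 6.08 CPM in young, with every old library above every young one (edgeR adjusted p = 0.324), and Nkg7 70.8 ± 43.9 CPM in old against 184 ± 137 CPM in young. Of the erythroid list, Epor averaged 24.6 ± 16.8 CPM in old against 51.0 ± 8.94 CPM in young, and Klf1 8.30 ± 14.3 CPM in old against 31.6 ± 16.9 CPM in young. Of the monocyte and macrophage list, Lyz2 averaged 1200.2 ± 284 CPM in old against 909 ± 259 CPM in young, and C1qb 1.49 ± 2.57 CPM in old against 16.1 ± 16.04 CPM in young. Of the mast cell and basophil list, Cpa3 averaged 24.7 ± 12.6 CPM in old against 3.28 ± 4.86 CPM in young, and Fcer1a 14.1 ± 13.96 CPM in old against 2.12 ± 4.25 CPM in young. These genes were named after their values were seen.

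The summed levels of 6 marker lists lay above in every old library, as Tsc22d1 and Tsc22d3 did. The background for their counts is 0.235% of all tested genes called higher, 7.55% above in every old library and 5.18% below. The 12 immediate early genes summed to 6309 to 9176 CPM in old and 2795 to 4721 CPM in young libraries. Of 11 tested members, 2 were called higher (Zfp36 and Fos, the latter already given among the partners). None was called lower, and 6 lay above in every old library. The HSC markers summed to 2371 to 2660 CPM in old and 1198 to 2088 CPM in young libraries, with 1 of 7 called higher (Procr). The granulocyte markers summed to 546 to 793 CPM in old and 112 to 231 CPM in young libraries, nearly all of it Prtn3, which was called higher, while Ltf was at 0 in every library and Mpo at 0 in old. The plasma cell markers, nearly all Xbp1, summed to 605 to 955 CPM in old and 324 to 482 CPM in young libraries. The endothelial markers, mostly Emcn, summed to 115 to 180.1 CPM in old and 57.1 to 77.1 CPM in young libraries. The mast cell and basophil markers summed to 20.2 to 66.8 CPM in old and 0 to 10.4 CPM in young libraries. The last 3 lists held 0 calls in edgeR.

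The sums of 3 lists lay below in every old library. The 12 cell division genes summed to 664 to 1227 CPM in old and 2588 to 3087 CPM in young libraries. Of these 12, 11 lay below in every old library and 0 were called in edgeR. At an unadjusted p under 0.05 in edgeR 11 were lower, where 517 of all 11506 tested genes were. Progenitor markers summed to 85.2 to 135 CPM in old and 261 to 406 CPM in young libraries, and erythroid markers to 11.1 to 44.2 CPM in old and 73.9 to 109.9 CPM in young libraries, with 0 called in edgeR in either list. The megakaryocyte, monocyte, B cell, T and NK cell and stromal sums overlapped between the groups or were at 0 in old. The part of any of these groups in the levels of Tsc22d1 and Tsc22d3 was not tested.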

How the data were processed

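The authors deposited raw read counts per gene symbol for 3 old and 4 young HSC libraries, with totals of 22203806 to 32401925 per library. Per the labels' protocols, cDNA was made by Smart-seq+ and libraries with the Nextera XT kit. Strand is not named there, so overlapping antisense reads cannot be told apart. The tools named per the submitters' processing notes were Trimmomatic, FastQC, STAR and featureCounts, with build mm9; their versions and settings were not stated. No molecular identifiers are stated, so counts include amplification copies, and limits from 3 counts cover counting error only. All 21 pairs of libraries differed by more than sampling noise (chi-square per gene of at least 180).

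The software was R 4.3.3, with packages edgeR 4.0.16, limma 3.58.1, and DESeq2 version 1.42.0. The filter filterByExpr (minimum count 10, minimum total 15) kept 11506 genes. Library sizes were adjusted by TMM, and the groups were compared with a 2-sided quasi-likelihood F test with Benjamini-Hochberg adjustment over all tested genes (threshold 0.05). The SE was taken as |log2 fold change| / √F, and log2 CPM used a prior count of 2. The procedure was tested on simulated counts, and the outcome is not reported here. The common biological coefficient of variation in edgeR was 106%, so 0 calls in a list do not show that its genes were unchanged. The members, lists and rules were chosen with earlier results of these data known. Named genes are the members, the 5 nearest genes of each, genes past the threshold and up to 3 of each list with the smallest p, HSC and progenitor markers, and others where stated. No protein sequences were used. A few genes that these rules name are not reported here.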

Additional observations from a re-analysis of the deposited data

How the results depend on the processing

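Tsc22d1 and Tsc22d3 kept their direction under the 17 alternatives run. Their log2 fold changes ranged from 1.19 to 1.38 and from 1.03 to 1.40 with 1 library left out, and from 1.17 to 1.27 and from 1.15 to 1.25 with other tests, scalings and filters. Scaling by library size alone set the median of all tested genes to -0.12 in place of -0.03. Tsc22d2 (0.87) ranged from 0.45 to 1.29 with 1 library left out, and was 1.33 with limma-voom and 1.80 with the replicate block. Tsc22d4 ranged from -0.80 to 0.04 and was positive only without young 3 and with the replicate block (0.19). The labels do not pair same-numbered old and young libraries, so the numbers were not taken as pairs. Deviations from the group means correlated at -0.07 to 0.03 between same-numbered libraries and at -0.07 to 0.08 between differently numbered ones. With so few libraries per group, these correlations cannot settle pairing. With the replicate number as a block, on libraries 1 to 3, edgeR called 0 genes (425 higher and 286 lower at an unadjusted p under 0.05) and 0 list genes (11 higher and 4 lower unadjusted), with Tsc22d1 at 1.38 and Tsc22d3 at 1.31.

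The number of genes called was 29. It was 431 with DESeq2, 50 with limma-voom, 16 with library size alone and 130 when limited to genes averaging 50 CPM or more, a limit added after the data were examined. Without 1 library it was 2 (without old 1 or old 3) to 18 (without young 2). List genes called were 1 (Fos) in the main test, 10 with DESeq2, 2 without a filter (Fos and Mt1), 4 among genes of at least 50 CPM, 0 with DESeq2 size factors, upper quartile scaling or library size alone, and 0 without any 1 library (13 to 16 higher and 3 to 5 lower unadjusted). The adjusted p of Fos ranged from 8.29e-09 (DESeq2) to 0.507, past the threshold in 6 of 17 alternatives. The cause of these shifts was not tested. For Tsc22d2 the spread between libraries, from 21 to 671 counts, limits what can be said.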
